A study of Mus musculus with 23 samples.

Results

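The genes described here encode the subunits of mouse potassium channels, taken as every gene of the deposited expression table whose symbol begins with *Kcn* followed by a family letter and a number. The rule found 68 subunit genes among 20599 genes, and 4 noncoding genes with such a symbol were kept apart. RNA-seq had been run on β-TC6 cells, a mouse insulinoma line that secretes insulin, in 3 *Bmal1*-/-, 3 *Clock*-/- and 3 WT libraries, to ask which transcripts depend on the circadian clock of the β cell. Exon 8 of *Bmal1* or exons 6 and 7 of *Clock*, which encode the DNA-binding domains of the paired clock activators, had been deleted by CRISPR–Cas9 with homology-directed repair. The knockout lines carry a drug-resistance cassette that WT cells lack, neomycin in *Bmal1*-/- cells and puromycin in *Clock*-/- cells. All cells were grown in the same medium without treatment, and no time of day is given for the harvest. THRAP3, an RNA-binding protein, had also been mapped on chromatin by ChIP-seq in 2 *Bmal1*-/- and 2 WT libraries. Each knockout line came from a selected single-cell colony and its 3 libraries from wells of that line, so p-values measure the spread between wells, and genotype and clone cannot be told apart. In such bulk RNA, fewer cells of a type and less RNA per cell cannot be told apart either.

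Potassium channels let potassium leave the cell and so hold the membrane near rest, and each pore is built from α subunits, while auxiliary subunits change gating, surface number and calcium sensing. In the β cell, ATP-sensitive channels close when glucose is metabolized, the membrane depolarizes and calcium entry triggers insulin release. Voltage-gated and calcium-activated channels then end the action potentials, and two-pore-domain channels carry a steady leak.

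Levels are given as TPM, a measure of transcript abundance scaled for gene length and library size. Of the 68 subunit genes, 42 reached 1 TPM in 3 or more libraries and were tested, 5 reached it in 1 or 2 libraries, and 21 stayed under 1 in every library and were counted as not expressed. Among these were *Kcna4*, *Kcnc4*, *Kcne2*, *Kcng3*, *Kcng4*, *Kcnh8*, *Kcnip2*, *Kcnj3*, *Kcnj4*, *Kcnj9*, *Kcnj16*, *Kcnk3*, *Kcnk5*, *Kcnk13*, *Kcnmb1*, *Kcnn3*, *Kcnn4*, *Kcnq1*, *Kcnq5* and *Kcnt1*. A further 24 subunit symbols of the annotation had no row used here and were not analysed here. Changes are log2 fold changes of TPM + 1 from limma over all 15031 genes tested, with their standard error (SE) and Benjamini–Hochberg adjusted p, and the added 1 shrinks the change of low genes. The words rose and fell are kept for genes with an adjusted p below 0.01, and a gene is called where its log2 fold change is also beyond 1. The 42 tested members had the authors' mean normalized counts from 9.05 in *Kcna3* to 2685 in *Kcnh6*, with a median of 147.9.

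The libraries differed in relative depth by 0.786 to 1.45 times the first WT library. More genes were listed at 0 in *Bmal1*-/- libraries (2189 to 2691) than in *Clock*-/- libraries (791 to 1010) and WT libraries (687 to 905), and so were subunit genes, with 11 to 13 in *Bmal1*-/-, 3 to 7 in *Clock*-/- and 0 to 3 in WT libraries. All 16 markers of the labelled β-cell type reached 1 TPM in 3 or more libraries, but *Ucn3* was at 0, 0 and 0.137 TPM in *Clock*-/- libraries. The summed TPM of the 16 was 44870 to 48210 in *Bmal1*-/-, 37970 to 43750 in *Clock*-/- and 60620 to 63040 in WT libraries. Of the 16, *Bmal1*-/- cells had 3 risen (18.8%) and 6 fallen (37.5%), beside 18.4% and 21% of all genes tested. *Clock*-/- cells had 4 risen (25.0%) and 9 fallen (56.2%), beside 9.5% and 14.4%. *Nkx6-1* (1.29 and 0.93 on the log2 scale of TPM + 1) and *Neurod1* (0.42 and 0.40) rose in both. *Slc2a2* (−1.34 and −3.83), *Ins2*, *Iapp* and *Slc30a8* fell in both. The marker *Ins1* was at 2197 to 2567 TPM in *Bmal1*-/-, 57.7 to 64.0 TPM in *Clock*-/- and 2277 to 2359 TPM in WT libraries. For the 5 of 6 α-cell markers listed, the sum was 1618 to 2151 TPM in *Bmal1*-/-, 4335 to 5027 TPM in *Clock*-/- and 2770 to 2864 TPM in WT libraries. Of the 4 of these tested, 2 rose (50%) and 1 fell (25%) in each knockout line, so the sum does not stand for every marker. The 1 of 2 δ-cell markers listed was at 16.8 to 22.8 TPM in *Bmal1*-/-, 286.9 to 372.6 TPM in *Clock*-/- and 82.9 to 92.9 TPM in WT libraries. The 3 immune markers summed to 1.18 to 1.31 TPM in *Bmal1*-/-, 21.0 to 22.6 TPM in *Clock*-/- and 8.78 to 9.88 TPM in WT libraries. Of these, 2 were under 1 TPM in every library, so the sum rests mainly on 1 gene. The 3 endothelial markers were each under 1 TPM everywhere. The part of these marker differences in the subunit results was not tested.

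The subunit pool was dominated by few genes. In WT cells the 3 highest subunits, *Kcnk16*, *Kcnh6* and *Kcnj11*, made up 52.3% to 53.7% of all subunit TPM, against 57.7% to 61.0% in *Bmal1*-/- and 38.4% to 40.1% in *Clock*-/- libraries. Summed over all 68 genes, subunit TPM was 969.9, 910.9 and 948.4 in *Bmal1*-/- libraries, 440.5, 356.3 and 507.4 in *Clock*-/- libraries and 820.2, 801.7 and 722.7 in WT libraries. All *Bmal1*-/- sums were above the WT sums, and all *Clock*-/- sums were below them.

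**Figure D1:**
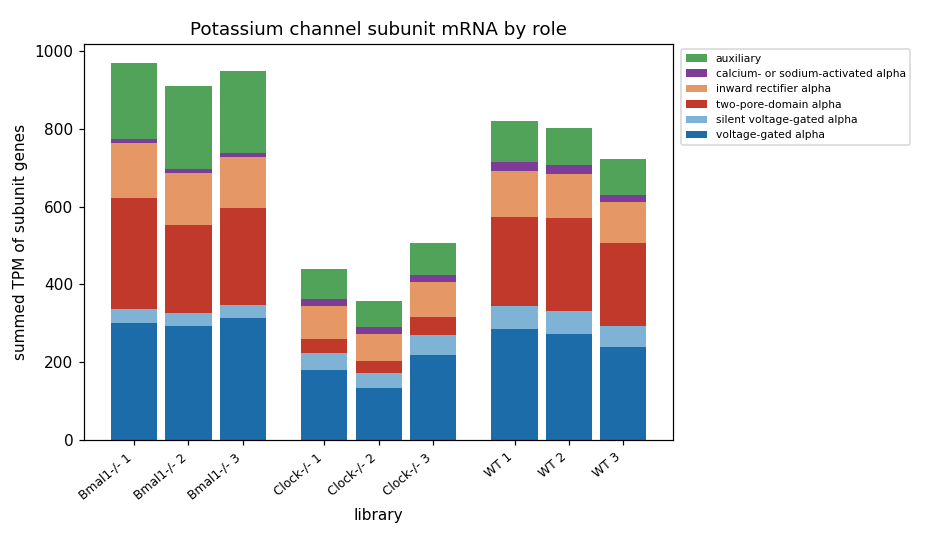
Summed TPM of subunit genes in each library (vertical axis, TPM from 0) for the 3 *Bmal1*-/-, 3 *Clock*-/- and 3 WT libraries, with colours for the role of the subunits. Two-pore-domain α subunits summed to 226.6 to 286.4 TPM in *Bmal1*-/-, 30.8 to 46.3 TPM in *Clock*-/- and 215.3 to 237.7 TPM in WT libraries, and auxiliary subunits to 195.5 to 214.4 TPM in *Bmal1*-/-, 66.8 to 82.1 TPM in *Clock*-/- and 92.0 to 105.1 TPM in WT libraries.

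Of the 42 tested members, 7 rose (16.7%) and 15 fell (35.7%) in *Bmal1*-/- cells, where 18.4% of all genes tested rose and 21% fell. Of these, 2 were called as higher, against 3.83% of all genes, and 11 as lower (26.2%), against 7.97% of all genes. In *Clock*-/- cells 4 rose and 15 fell, against 9.5% and 14.4% of all genes, and 1 was called as higher and 10 as lower (23.8%), against 2.62% and 4.78%. The median log2 fold change of the members was −0.21 in *Bmal1*-/- and −0.39 in *Clock*-/- cells, beside −0.04 and −0.02 for all genes tested, and the median absolute change was 0.61 and 0.51, beside 0.39 and 0.27. The WT libraries are shared by both comparisons. Between the knockout lines, which share none, 13 members were higher and 13 were lower in *Bmal1*-/- than in *Clock*-/- cells (31.0% each), where 22.8% and 21.8% of all genes were. Of these, 10 members were called as higher, against 6.25% of all genes, and 5 as lower (11.9%), against 8.27%.

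**Figure D2:**
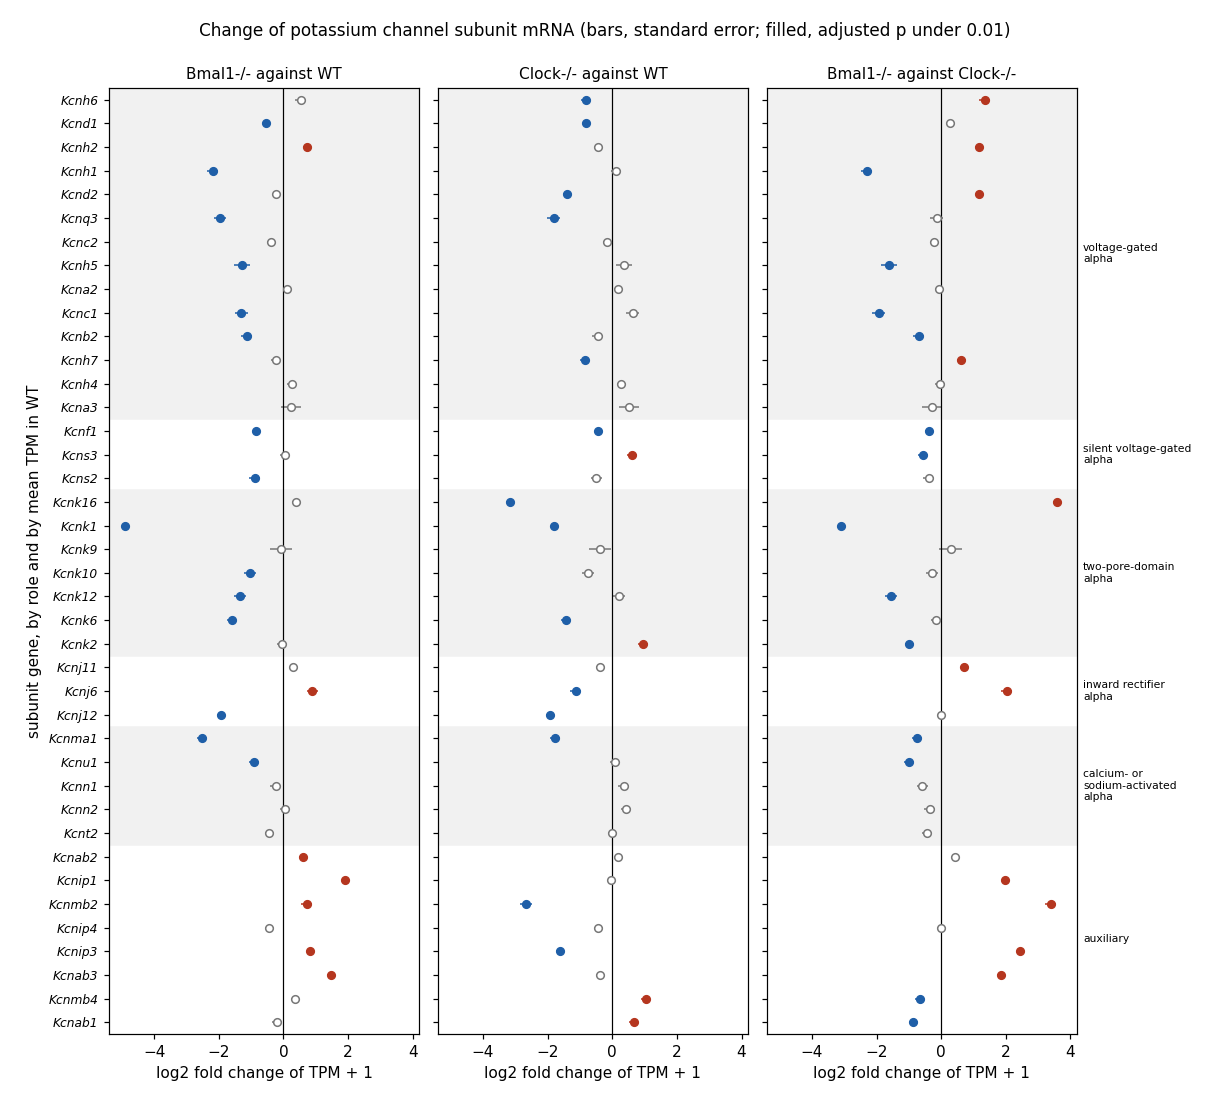
Log2 fold change of TPM + 1 for 40 of the 42 tested subunit genes (rows, by role and by WT level) in *Bmal1*-/- against WT, *Clock*-/- against WT and *Bmal1*-/- against *Clock*-/- cells, with bars for the SE and filled points at an adjusted p under 0.01 (red higher, blue lower). Among auxiliary subunits 5 of 8 rose and 0 fell in *Bmal1*-/- cells, where 18.4% of all genes rose and 21% fell. *Kcnk16* and *Kcnmb2* are the lowest points of *Clock*-/- against WT. The points of *Kcnk1*, *Kcnk6* and *Kcnj12* against a genotype listed at 0 depend on the 1 added to TPM.

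Set side by side, 7 members fell in both lines (*Kcnd1*, *Kcnf1*, *Kcnj12*, *Kcnk1*, *Kcnk6*, *Kcnma1* and *Kcnq3*). That is 16.7% of the tested members, where 6.85% of all genes fell in both. Another 3 (*Kcnip3*, *Kcnj6* and *Kcnmb2*) fell in *Clock*-/- cells but rose in *Bmal1*-/- cells, or 7.14% of the members beside 1.87% of all genes. No member rose in both. Neither test was passed by 11 members, or 26.2% beside 50.2% of all genes, among them *Kcna2*, *Kcna3*, *Kcnc2*, *Kcnh4*, *Kcnip4*, *Kcnj11*, *Kcnk9*, *Kcnn1*, *Kcnn2* and *Kcnt2*.

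Two-pore-domain subunits, which form leak channels as dimers, held the lowest fitted change among the tested members in either line. The 7 tested held 4 falls and 0 rises in *Bmal1*-/- cells, where 21% of all genes fell and 18.4% rose. They held 3 falls and 1 rise in *Clock*-/- cells, beside 14.4% and 9.5% of all genes. *Kcnk16* (ENSMUSG00000023387.7, chr14:20261376-20269199), an islet channel and the highest subunit of WT cells, was at 281, 221 and 243 TPM in *Bmal1*-/- libraries, 18.7, 16.99 and 24.1 TPM in *Clock*-/- libraries and 188, 195 and 178 TPM in WT libraries. All *Clock*-/- values were far below the others, and all *Bmal1*-/- values were above WT. Its log2 fold change was −3.18 (SE 0.13, adjusted p = 1.0e-07) in *Clock*-/- cells, and 3.58 (SE 0.13, adjusted p = 2.6e-08) in *Bmal1*-/- against *Clock*-/- cells. In *Bmal1*-/- against WT cells it was 0.40 (SE 0.13, adjusted p = 0.0214), which did not pass, although it passed with the other scalings, with *Bmal1*-/- and WT fitted alone, and without the second or without the third *Clock*-/- library (adjusted p of 0.00396 to 0.00992). Around *Kcnk16*, the 10 nearest tested genes had a median of 0.05 in *Clock*-/- cells, with 1 risen and 2 fallen.

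The promoter of *Kcnk16* is printed because this gene fell most in *Clock*-/- cells. It runs from 250 bases before to 50 after a RefSeq start (GRCm38.p6, the coordinates of mm10), and capitals mark 5 matches to the 6-base E-box pattern CANNTG, which reads the same on both strands.
*Kcnk16*, chr14:20269220-20269519, minus strand: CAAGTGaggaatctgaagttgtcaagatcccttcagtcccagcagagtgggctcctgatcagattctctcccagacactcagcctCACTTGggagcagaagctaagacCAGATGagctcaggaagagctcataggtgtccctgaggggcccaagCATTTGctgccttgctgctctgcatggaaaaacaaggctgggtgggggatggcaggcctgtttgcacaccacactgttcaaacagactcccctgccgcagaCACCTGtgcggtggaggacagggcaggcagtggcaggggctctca
None of the 5 is the canonical CACGTG, which CLOCK and BMAL1 bind.

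*Kcnk1* (ENSMUSG00000033998.8, chr8:125995170-126030685), a weakly conducting two-pore channel, was at 0, 0 and 0 TPM in *Bmal1*-/- libraries, 7.65, 6.84 and 8.08 TPM in *Clock*-/- libraries and 29.7, 30.6 and 25.8 TPM in WT libraries. It was thus listed at 0 in every *Bmal1*-/- library, and the *Clock*-/- values lay between 0 and all WT values. It fell in both lines (adjusted p = 3.5e-09 and 2.1e-06), with a log2 fold change of −1.80 in *Clock*-/- cells, and it was lower in *Bmal1*-/- than in *Clock*-/- cells (adjusted p = 3.4e-08). Its 10 nearest tested genes had a median of 0.08 in *Bmal1*-/- cells. *Kcnk6*, a relative of *Kcnk1*, was likewise listed at 0 in the *Bmal1*-/- libraries, at 0.0393, 0.243 and 0.0973 TPM in *Clock*-/- and 2.14, 2.22 and 1.76 TPM in WT libraries, and fell in both (adjusted p = 1.4e-05 and 5.2e-05).

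The other two-pore subunits were low. *Kcnk12* fell in *Bmal1*-/- cells (−1.34, adjusted p = 0.000251) and did not pass in *Clock*-/- cells (0.21). *Kcnk10*, a channel gated by lipids and stretch, had −1.03 in *Bmal1*-/- cells, where it fell, and −0.74 in *Clock*-/- cells (adjusted p = 0.0117). *Kcnk2*, of the same mechanosensitive branch, rose in *Clock*-/- cells, with 3.33, 2.78 and 4.29 TPM against 1.38, 1.24 and 1.25 TPM in WT libraries (0.95 (SE 0.15, adjusted p = 0.000755)). *Kcnk9*, an acid-sensitive channel, passed in neither and varied most between *Clock*-/- libraries, at 2.16, 0.668 and 4.18 TPM.

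Inward rectifiers pass potassium best near rest, and *Kcnj11* (ENSMUSG00000096146.2, chr7:46093953-46100764) forms the pore of the ATP-sensitive channel. It was at 135, 129 and 125 TPM in *Bmal1*-/- libraries, 82.8, 67.3 and 89.1 TPM in *Clock*-/- libraries and 109, 106 and 97.97 TPM in WT libraries. All *Bmal1*-/- libraries were above and all *Clock*-/- libraries below WT, but by little, and neither difference passed: 0.31 (SE 0.10, adjusted p = 0.0225) in *Bmal1*-/- and −0.39 (SE 0.10, adjusted p = 0.0113) in *Clock*-/- cells. Each passed in the same direction under 4 of 18 alternatives, both of them with median-of-ratios rescaling and with libraries centred on the median level of each chromosome (lowest adjusted p = 0.00183 in *Bmal1*-/- and 0.00115 in *Clock*-/- cells). The line-to-line difference passed, at 0.70 (SE 0.10, adjusted p = 0.000203). *Abcc8*, the sulfonylurea receptor that completes this channel, rose in *Clock*-/- cells (0.60, adjusted p = 0.00339) and had 0.15 (adjusted p = 0.323) in *Bmal1*-/- cells.

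*Kcnj6* (ENSMUSG00000043301.15, chr16:94748636-94997701), an inward rectifier opened by G proteins, was at 6.85, 5.58 and 7.31 TPM in *Bmal1*-/- libraries, 1.12, 0.556 and 0.939 TPM in *Clock*-/- libraries and 3.58, 3.23 and 2.45 TPM in WT libraries. All *Bmal1*-/- values were above and all *Clock*-/- values below WT. It rose by 0.89 (SE 0.17, adjusted p = 0.00155) in *Bmal1*-/- cells and had −1.13 (SE 0.17, adjusted p = 0.000662) in *Clock*-/- cells, where it fell. The genes of chromosome 16 had a median of −0.46 in *Clock*-/- cells. With libraries centred by chromosome in this way, which moved the genes of chromosome 16 by 0.43 in that comparison, *Kcnj6* still fell, at −0.70 (adjusted p = 0.00347). *Kcnj12* (ENSMUSG00000042529.14, chr11:61022564-61071131), a strong inward rectifier, was listed at 0 in all 6 knockout libraries and was at 2.77, 2.92 and 2.72 TPM in WT libraries (adjusted p = 2.0e-06 in *Bmal1*-/- and 3.3e-06 in *Clock*-/- cells). *Kcnj2*, of the same strong type, reached 1 TPM in the second *Clock*-/- library alone, at 1.04 TPM, and was not tested.

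Calcium-activated channels repolarize the membrane after calcium entry. *Kcnma1* (ENSMUSG00000063142.13, chr14:23289431-24014491), the α subunit of the large-conductance BK channel, was at 0.671, 0.605 and 0.834 TPM in *Bmal1*-/- libraries, 1.68, 1.61 and 2.33 TPM in *Clock*-/- libraries and 9.62, 9.33 and 7.39 TPM in WT libraries. The genotypes did not overlap, with *Bmal1*-/- lowest. It fell by 2.52 (SE 0.15, adjusted p = 1.0e-06) on the log2 scale in *Bmal1*-/- cells and by 1.77 (SE 0.15, adjusted p = 1.7e-05) in *Clock*-/- cells, and was lower in *Bmal1*-/- than in *Clock*-/- cells (−0.75 (adjusted p = 0.00197)). Its 10 nearest tested genes had a median of −0.03 in *Bmal1*-/- cells, with 1 risen and 0 fallen.

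The tested auxiliary subunits of the same channel did not fall in both lines as *Kcnma1* did. *Kcnmb2* (ENSMUSG00000037610.15, chr3:31902507-32200180), a β subunit that inactivates BK channels, was at 24.1, 31.5 and 29.3 TPM in *Bmal1*-/- libraries, 1.56, 1.29 and 2.65 TPM in *Clock*-/- libraries and 18.6, 16.3 and 15.3 TPM in WT libraries. Every *Bmal1*-/- value was above WT and every *Clock*-/- value far below. It fell in *Clock*-/- cells with −2.67 (SE 0.18, adjusted p = 3.1e-06) and rose in *Bmal1*-/- cells with 0.72 (SE 0.18, adjusted p = 0.00653), and the lines differed by 3.39 (SE 0.18, adjusted p = 3.8e-07). The rise was near the threshold, as leaving out any of 6 libraries ended it (the second *Bmal1*-/-, the third *Bmal1*-/-, the first *Clock*-/- or any WT library, adjusted p of 0.0101 to 0.03), while the fall passed throughout. Its 10 nearest tested genes had a median of 0.08 in *Clock*-/- cells. *Kcnmb4*, another β subunit, rose in *Clock*-/- cells to 3.04, 3.7 and 2.92 TPM, against 0.907, 1.13 and 1.15 TPM in WT libraries (1.03 (SE 0.13, adjusted p = 0.000225)). The antisense gene *Kcnmb4os2*, whose exons overlap it, was at 0.885, 1.59 and 1.3 TPM in *Clock*-/- and 0.0784, 0.337 and 0.0901 TPM in WT libraries. Whether reads were counted by strand is not stated, so such pairs, which concern 14 of the 42 tested members, may share reads.

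**Figure D3:**
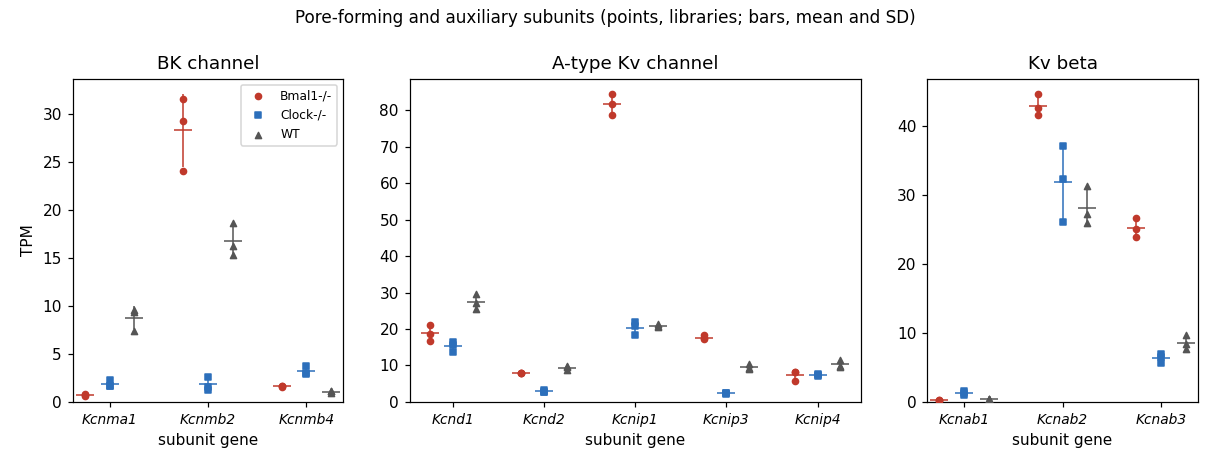
TPM (vertical axes, from 0) of pore-forming and auxiliary subunits of 3 channel groups in each library, with *Bmal1*-/-, *Clock*-/- and WT values from left to right and bars for the mean and SD of 3 libraries. *Kcnma1* was low in both knockout lines while *Kcnmb2* was highest in *Bmal1*-/- and lowest in *Clock*-/- cells, and *Kcnip1* at 78.7 to 84.5 TPM stood apart in *Bmal1*-/- cells.

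Of the remaining calcium- or sodium-activated subunits, *Kcnu1*, a pH-gated relative of BK known from sperm, fell in *Bmal1*-/- cells (−0.91, adjusted p = 0.000629). Both small-conductance subunits, *Kcnn1* (−0.24 in *Bmal1*-/- and 0.35 in *Clock*-/- cells) and *Kcnn2* (0.06 and 0.42), passed in neither. The same held for the sodium-activated *Kcnt2* (−0.44 and 0.00). Of this group only *Kcnma1* passed in *Clock*-/- cells.

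Voltage-gated α subunits were the largest group, with 16 members tested. There were 6 falls and 1 rise in *Bmal1*-/- cells, where 21% of all genes fell and 18.4% rose. In *Clock*-/- cells there were 6 falls and 0 rises, beside 14.4% and 9.5% of all genes. Between the lines 6 were higher and 4 lower in *Bmal1*-/- cells, beside 22.8% and 21.8% of all genes. The ether-a-go-go family supplied most of their TPM. *Kcnh6* (ENSMUSG00000001901.15, chr11:106008124-106034549), an Erg-type channel, was at 176, 176 and 184 TPM in *Bmal1*-/- libraries, 71.2, 52.6 and 90.4 TPM in *Clock*-/- libraries and 132, 129.9 and 109.5 TPM in WT libraries. Here too *Bmal1*-/- lay above and *Clock*-/- below WT. It fell in *Clock*-/- cells with −0.81 (SE 0.16, adjusted p = 0.00327), but not without the first *Clock*-/-, the first WT or the second WT library (adjusted p of 0.012 to 0.016). In *Bmal1*-/- cells it had 0.53 (SE 0.16, adjusted p = 0.0195), and it passed as a rise under 4 of 18 alternatives (lowest adjusted p = 0.000555). These were median-of-ratios rescaling, *Bmal1*-/- and WT fitted alone, and the second or the third *Clock*-/- library left out. With libraries centred by chromosome, which moved the genes of chromosome 11 by −0.47 in this comparison, it had 0.06 (adjusted p = 0.659). The median change of chromosome 11 genes there was 0.35.

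*Kcnh1* (ENSMUSG00000058248.12, chr1:192190774-192510159), the founding ether-a-go-go channel, was at 4.54, 3.42 and 4.11 TPM in *Bmal1*-/- libraries, 23.9, 18.1 and 30.4 TPM in *Clock*-/- libraries and 22.7, 21.7 and 20.9 TPM in WT libraries. In *Bmal1*-/- cells all values were below the rest, while *Clock*-/- and WT values overlapped. It fell by 2.19 (SE 0.17, adjusted p = 4.8e-06) on the log2 scale in *Bmal1*-/- cells, had 0.12 (SE 0.17, adjusted p = 0.628) in *Clock*-/- cells, and was lower in *Bmal1*-/- than in *Clock*-/- cells (−2.30 (adjusted p = 3.1e-06)). The 10 nearest tested genes had a median of −0.24, and chromosome 1 as a whole −0.35, in *Bmal1*-/- cells. With libraries centred by chromosome, which moved its genes by 0.28, the fall was −1.91 (adjusted p = 3.13e-06).

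The promoter of *Kcnh1* is shown because both *Bmal1*-/- ChIP-seq libraries had a THRAP3 peak over it and no WT library did. Capitals mark the 33 bases, chr1:192190549-192190581, that both peaks share (RefSeq, GRCm38.p6). The peaks, at 192190549-192190797 and 192190337-192190581, overlap only at their edges.
*Kcnh1*, chr1:192190527-192190826, plus strand: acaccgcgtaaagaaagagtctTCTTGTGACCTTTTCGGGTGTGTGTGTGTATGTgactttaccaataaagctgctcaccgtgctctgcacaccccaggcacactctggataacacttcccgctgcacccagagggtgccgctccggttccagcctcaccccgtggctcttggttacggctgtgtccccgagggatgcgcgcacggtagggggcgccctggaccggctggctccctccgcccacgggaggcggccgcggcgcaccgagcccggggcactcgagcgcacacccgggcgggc

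*Kcnh5*, a close relative of *Kcnh1*, was at 1.215, 1.08 and 1.215 TPM in *Bmal1*-/- libraries, 5.58, 3.53 and 8.95 TPM in *Clock*-/- libraries and 4.81, 4.45 and 3.5 TPM in WT libraries. As with *Kcnh1*, *Bmal1*-/- cells lay below the rest and *Clock*-/- overlapped WT (−1.27 (SE 0.25, adjusted p = 0.00176) in *Bmal1*-/- and 0.35 (SE 0.25, adjusted p = 0.295) in *Clock*-/- cells). *Kcnh2*, the Erg channel of the cardiac action potential, rose in *Bmal1*-/- cells (0.73 (SE 0.13, adjusted p = 0.000978)) and had −0.44 (adjusted p = 0.0216) in *Clock*-/- cells. *Kcnh7*, a further Erg subunit, fell in *Clock*-/- cells (−0.86, adjusted p = 0.000822), and *Kcnh4* passed in neither. *Kcnh3*, an Elk-type subunit, was at 0.354, 0.0916 and 0.275 TPM in *Bmal1*-/- libraries, 0.136, 0.113 and 0 TPM in *Clock*-/- libraries and 1.42, 0.619 and 1.63 TPM in WT libraries. It was not tested in the main fit. In the limma fit without a filter on low values it passed as a fall in *Bmal1*-/- (−0.82, adjusted p = 0.00445) and *Clock*-/- cells (−1.01, adjusted p = 0.00221).

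*Kcnb2*, a delayed rectifier, fell in *Bmal1*-/- cells (−1.14 (SE 0.17, adjusted p = 0.000318)) and had −0.45 (adjusted p = 0.0611) in *Clock*-/- cells.

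Fast-inactivating *Kcnd* subunits carry the A-type current. *Kcnd2* (ENSMUSG00000060882.5, chr6:21215503-21729805) was at 7.83, 7.96 and 7.86 TPM in *Bmal1*-/- libraries, 2.81, 2.62 and 3.33 TPM in *Clock*-/- libraries and 9.49, 9.74 and 8.89 TPM in WT libraries. The *Clock*-/- values were far below WT, and the *Bmal1*-/- values lay close under WT. It fell in *Clock*-/- cells (−1.41 (SE 0.11, adjusted p = 7.3e-06)) and did not pass in *Bmal1*-/- cells (−0.22 (SE 0.11, adjusted p = 0.103)), and the lines differed (1.18 (adjusted p = 1.1e-05)). *Kcnd1* fell in both, with −0.53 in *Bmal1*-/- and −0.81 in *Clock*-/- cells. The fall in *Bmal1*-/- cells was lost without the first or second *Bmal1*-/- or the first or second WT library (adjusted p of 0.0103 to 0.0132).

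*Kcnq3* (ENSMUSG00000056258.8, chr15:65986387-66286642), a subunit of the M-current that restrains firing, was at 1.07, 1.31 and 1.45 TPM in *Bmal1*-/- libraries, 1.49, 0.96 and 2.19 TPM in *Clock*-/- libraries and 9.23, 7.68 and 6.66 TPM in WT libraries. Both knockout lines lay below all WT libraries and overlapped each other. It fell with −1.95 (SE 0.19, adjusted p = 2.3e-05) in *Bmal1*-/- and −1.82 (SE 0.19, adjusted p = 6.8e-05) in *Clock*-/- cells, and the lines differed by −0.14 (SE 0.19, adjusted p = 0.555).

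The fast-deactivating *Kcnc* subunits allow rapid firing. *Kcnc1* (ENSMUSG00000058975.7, chr7:46396497-46438704) was at 0.477, 0.521 and 0.626 TPM in *Bmal1*-/- libraries, 5.89, 3.31 and 5.83 TPM in *Clock*-/- libraries and 3.41, 2.8 and 2.28 TPM in WT libraries. It fell in *Bmal1*-/- cells (−1.30 (SE 0.20, adjusted p = 0.000406)), where all values were below WT. In *Clock*-/- cells, which overlapped WT, it had 0.63 (SE 0.20, adjusted p = 0.0322), and without the second *Clock*-/- library it passed as a rise (adjusted p = 0.00271). *Kcnc2* (−0.39 in *Bmal1*-/- and −0.17 in *Clock*-/- cells) and the shaker subunits *Kcna2* (0.10 and 0.18) and *Kcna3* (0.23 and 0.52) passed in neither.

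Silent subunits form no channel alone and alter *Kcnb* channels that take them in. *Kcnf1* (ENSMUSG00000051726.6, chr12:17172100-17176888), the fourth highest subunit of WT cells, was at 29.4, 28.8 and 29.5 TPM in *Bmal1*-/- libraries, 39.8, 32.7 and 44.3 TPM in *Clock*-/- libraries and 56.3, 53.2 and 49.4 TPM in WT libraries. Both lines lay below WT, with *Bmal1*-/- lowest. It fell with −0.84 (SE 0.11, adjusted p = 0.000116) in *Bmal1*-/- cells and −0.44 (SE 0.11, adjusted p = 0.00839) in *Clock*-/- cells. The second fall was near the threshold and was lost without any single *Bmal1*-/- or WT library or the first *Clock*-/- library (adjusted p of 0.0136 to 0.0369). *Kcns2* fell in *Bmal1*-/- cells (−0.89, adjusted p = 0.00162) but not with libraries centred by chromosome (−0.63, adjusted p = 0.0142).

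*Kcns3* rose in *Clock*-/- cells (0.62, adjusted p = 0.00985), a rise lost without any single library other than the second *Clock*-/- library (adjusted p of 0.0111 to 0.0381). *Kcnv1*, also silent, reached 1 TPM in the first *Bmal1*-/- library alone, at 1.32 TPM, and was not tested.

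Among the 8 tested auxiliary subunits, 5 rose and 0 fell in *Bmal1*-/- cells, while among the other 34 tested members 2 rose and 15 fell, beside 18.4% and 21% of all genes. Of the 5 rises, that of *Kcnmb2* was lost under 10 of 18 alternatives and that of *Kcnab2* under 3. In *Clock*-/- cells 2 auxiliary subunits rose and 2 fell, beside 9.5% and 14.4% of all genes. Between the lines 4 auxiliary subunits were higher and 2 lower in *Bmal1*-/- cells, beside 22.8% and 21.8% of all genes. *Kcnip1* (ENSMUSG00000053519.15, chr11:33629339-33993152), a calcium-binding partner of *Kcnd* channels, was at 78.7, 84.5 and 81.8 TPM in *Bmal1*-/- libraries, 21.8, 18.3 and 20.7 TPM in *Clock*-/- libraries and 21.4, 20.5 and 20.7 TPM in WT libraries. Only *Bmal1*-/- libraries stood apart, as *Clock*-/- and WT overlapped. It rose with 1.92 (SE 0.08, adjusted p = 9.5e-08) in *Bmal1*-/- cells, against −0.05 (SE 0.08, adjusted p = 0.682) in *Clock*-/- cells, and the lines differed (1.96 (adjusted p = 6.2e-08)). With libraries centred by chromosome the rise was 1.45 (adjusted p = 3.42e-07).

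*Kcnip3* (ENSMUSG00000079056.12, chr2:127456498-127522094), of the same family and also known as a calcium-dependent repressor of transcription, was at 18.3, 17.2 and 17.4 TPM in *Bmal1*-/- libraries, 2.25, 2.56 and 2.45 TPM in *Clock*-/- libraries and 9.13, 10.3 and 9.41 TPM in WT libraries. The 3 genotypes were again separate, with *Bmal1*-/- above and *Clock*-/- below WT. It rose in *Bmal1*-/- cells (0.81 (SE 0.10, adjusted p = 7.5e-05)), fell in *Clock*-/- cells (−1.63 (SE 0.10, adjusted p = 1.3e-06)), and the lines differed by 2.45 (SE 0.10, adjusted p = 5.5e-08). *Kcnip4*, the other tested member of this family, had −0.43 (adjusted p = 0.0231) in *Bmal1*-/- and −0.44 (adjusted p = 0.0305) in *Clock*-/- cells, and all 6 knockout values were below WT.

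The β subunits of shaker-type channels are related to aldo-keto reductases. *Kcnab3* (ENSMUSG00000018470.8, chr11:69326258-69333042) was at 24.0, 26.7 and 25.2 TPM in *Bmal1*-/- libraries, 6.88, 5.63 and 6.49 TPM in *Clock*-/- libraries and 9.69, 8.34 and 7.64 TPM in WT libraries. No *Bmal1*-/- or *Clock*-/- value overlapped WT, with *Bmal1*-/- above and *Clock*-/- below. It rose in *Bmal1*-/- cells (1.46 (SE 0.11, adjusted p = 4.8e-06)) and had −0.38 (SE 0.11, adjusted p = 0.0236) in *Clock*-/- cells. Centred by chromosome, the rise was 1.00 (adjusted p = 1.44e-05), and in *Clock*-/- cells it passed as a fall (−0.43, adjusted p = 0.00431).

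Exons of *Kcnab3* overlap the antisense gene *Kcnab3os*, which fell in *Bmal1*-/- cells (−1.09 (SE 0.20, adjusted p = 0.00133)), so reads of this pair may also be mixed. *Kcnab2*, the most abundant β subunit, rose in *Bmal1*-/- cells (0.60 (SE 0.12, adjusted p = 0.00238)), but not without the third *Bmal1*-/-, the second WT or the third WT library (adjusted p of 0.0113 to 0.0118). *Kcne1*, a small subunit of *Kcnq1* channels, was at 0.177, 0.24 and 0.103 TPM in *Bmal1*-/- libraries, 0.357, 0.189 and 0.19 TPM in *Clock*-/- libraries and 1.34, 0.694 and 0.856 TPM in WT libraries. It was not tested in the main fit. In the limma fit without a filter on low values it passed as a fall in *Bmal1*-/- (−0.73, adjusted p = 0.00139) and *Clock*-/- cells (−0.65, adjusted p = 0.00443).

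*Kcnab1* rose in *Clock*-/- cells, at 1.59, 1.27 and 1.06 TPM against 0.406, 0.496 and 0.467 TPM in WT libraries (0.66 (SE 0.14, adjusted p = 0.00577)), and was lower in *Bmal1*-/- than in *Clock*-/- cells (−0.86 (adjusted p = 0.000673)). The rise was lost without any of 7 libraries (all but the first *Bmal1*-/- and the third *Clock*-/- library, adjusted p of 0.0107 to 0.0256). It is also 1 of 3 expressed members with a canonical E-box, CACGTG, in a promoter window. The 2 *Kcnab1* windows that hold it are printed with the motif in capitals (RefSeq, GRCm38.p6).
*Kcnab1*, chr3:65108764-65109063, plus strand: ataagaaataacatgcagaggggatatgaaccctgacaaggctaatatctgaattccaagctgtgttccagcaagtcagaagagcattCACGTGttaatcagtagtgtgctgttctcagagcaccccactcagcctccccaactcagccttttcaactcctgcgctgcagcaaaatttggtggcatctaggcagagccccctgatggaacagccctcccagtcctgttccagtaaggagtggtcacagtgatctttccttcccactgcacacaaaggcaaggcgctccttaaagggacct
*Kcnab1*, chr3:65187853-65188152, plus strand: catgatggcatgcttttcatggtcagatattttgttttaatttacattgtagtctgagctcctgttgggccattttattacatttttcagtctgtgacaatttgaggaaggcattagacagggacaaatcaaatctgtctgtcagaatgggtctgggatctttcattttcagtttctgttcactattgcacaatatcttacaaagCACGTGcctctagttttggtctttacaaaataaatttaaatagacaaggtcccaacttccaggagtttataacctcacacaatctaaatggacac
The motif, its own reverse complement, began 162 bases before the first start and 45 before the second.

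**Figure D4:**
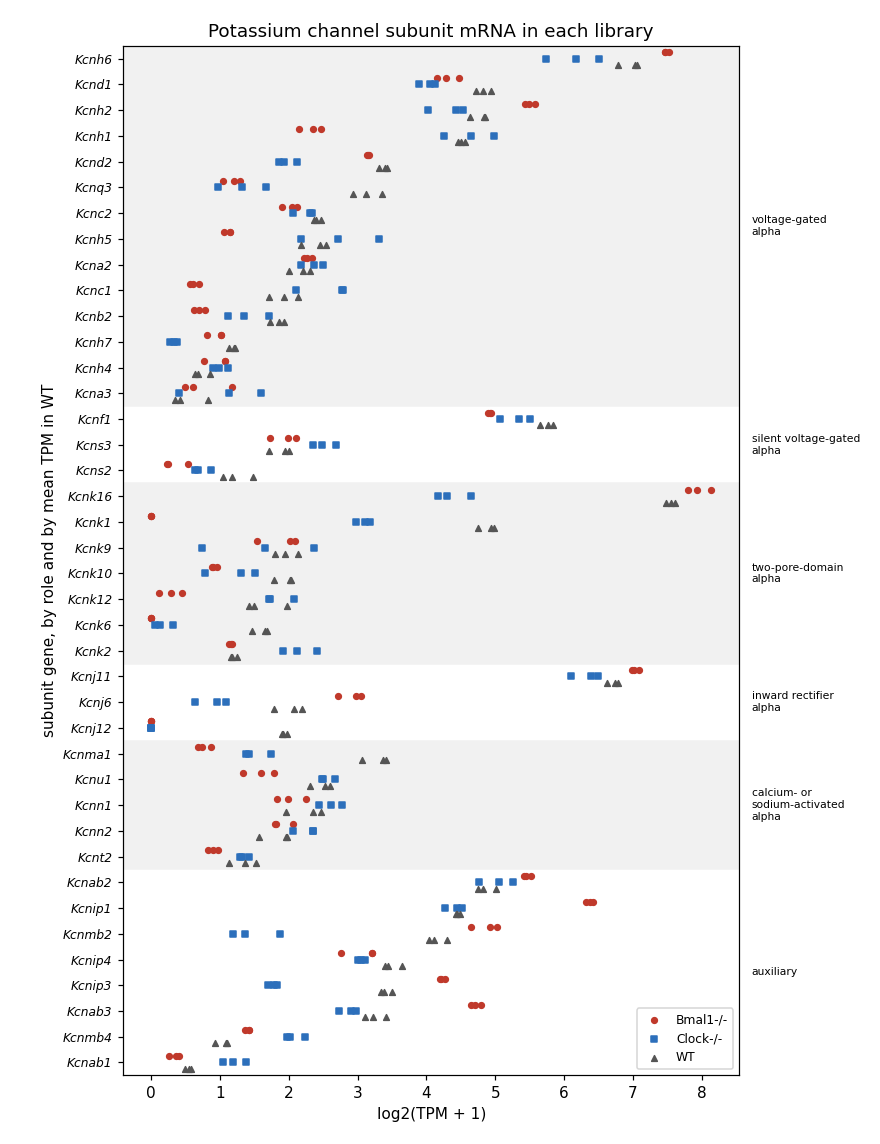
log2(TPM + 1) (horizontal axis) of 40 of the 42 tested subunit genes in each library, grouped by role and ordered by mean WT TPM, with red circles for *Bmal1*-/-, blue squares for *Clock*-/- and grey triangles for WT. *Kcnk16*, *Kcnh6* and *Kcnj11* are the highest subunits of WT cells, and *Kcnk1* lies at 0 in the 3 *Bmal1*-/- libraries.

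Promoter sequences were matched for 31 of the 47 expressed members. A CACGTG lay in a window of 3 of them (9.68%), *Kcnab1*, *Kcnh4* and *Kcnj2*, beside 8.09% of 27025 genes. None of the 7 members that fell in both lines was among them, although not all 7 had a sequence matched. CANNTG lay in a window of 21 members (67.7%), beside 74.99% of all genes.

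Genes that work with these channels were counted beside them, where 18.4% of all genes rose and 21% fell in *Bmal1*-/- cells, with 9.5% risen and 14.4% fallen in *Clock*-/- cells. Of 13 tested partner genes (calmodulins, receptors, anchors and trafficking proteins of the channels), 2 rose and 2 fell in *Bmal1*-/- cells (15.4% each), and 1 rose (7.69%) and 3 fell (23.1%) in *Clock*-/- cells. *Amigo1*, an auxiliary protein of delayed-rectifier channels, rose in *Bmal1*-/- cells (1.07, adjusted p = 9.0e-06), and *Dpp10*, which joins *Kcnd* channels, rose there (0.71, adjusted p = 0.000712) and fell in *Clock*-/- cells (−0.60, adjusted p = 0.00324). Of 13 tested other channels, listed for β-cell excitability, 2 rose and 2 fell in *Bmal1*-/- cells (15.4% each), and 1 rose (7.69%) and 0 fell in *Clock*-/- cells. The pacemaker channel *Hcn2* rose in *Bmal1*-/- cells (1.006, adjusted p = 1.1e-05). Of 7 tested genes of the sodium–potassium pump, 3 rose (42.9%) and 2 fell (28.6%) in *Bmal1*-/- cells, with 1 of each (14.3%) in *Clock*-/- cells. With so few genes in each list, nothing is read from these shares. In the pump list, *Fxyd6*, a small regulator of the pump, was listed at 0 in all *Bmal1*-/- libraries. It was at 3.04 to 4.06 TPM in *Clock*-/- and 10.49 to 13.1 TPM in WT libraries, and fell in both lines (adjusted p = 4.7e-08 and 2.0e-05).

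THRAP3 peaks were asked for within 1000 bp of an annotated start of the 47 expressed members. In the *Bmal1*-/- libraries 7 (14.9%) and 9 (19.1%) of them had a peak, beside 31.5% and 26.5% of all expressed genes, and in the WT libraries 1 (2.13%) and 4 (8.51%), beside 1.34% and 12.5%. In at least 1 library of the genotype it was 11 in *Bmal1*-/- cells (23.4%, 95% Wilson interval 13.6% to 37.2%; all genes 40.2%) and 4 in WT cells (8.51%, 3.36% to 19.9%; all genes 12.9%). The lists held 12949 and 12226 peaks in *Bmal1*-/- and 808 and 6128 in WT cells, so the difference between genotypes in members cannot be told apart from the difference in list length, and no test was made. The intervals cover counting error only.

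**Figure D5:**
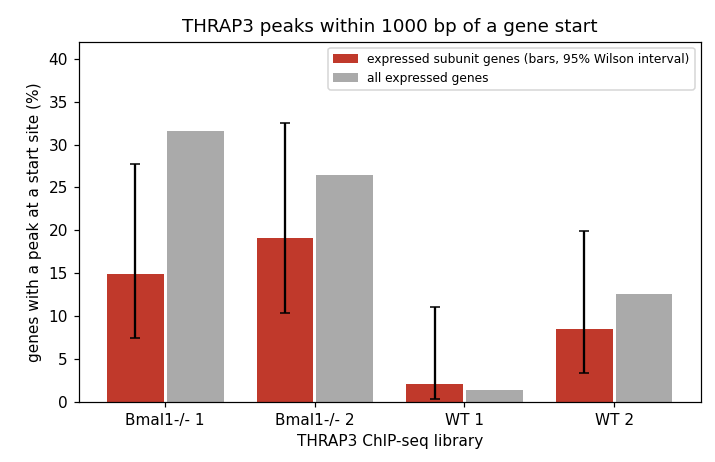
Percent of genes with a THRAP3 peak within 1000 bp of a start site (vertical axis, from 0) in each ChIP-seq library, for the 47 expressed subunit genes (red, with 95% Wilson intervals) and for all expressed genes (grey). The subunit share is under the share of all genes in 3 of the 4 libraries, and in the first WT library both are at most 2.13%.

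*Kcnip4* was the only expressed member with a peak at a start in all 4 libraries. Its signal, the tags of the peak scaled to a common total, was 39.3 and 40.1 in *Bmal1*-/- libraries and 17.1 and 28.7 in WT libraries. Both *Bmal1*-/- values were above WT, but no test was made on 2 libraries a genotype. Members with a peak at a start in both *Bmal1*-/- libraries and none at a start in WT were *Kcnb2* (signal 11 and 10), *Kcnd1* (11 and 8.02), *Kcnh1* (18.1 and 10.7, sharing only the 33 bases printed above) and *Kcnk16* (11 and 12, at different places). Of these 5 members, *Kcnb2*, *Kcnd1* and *Kcnh1* fell in *Bmal1*-/- cells, and *Kcnip4* and *Kcnk16* did not pass. Among all 42 tested members 35.7% fell there, beside 21% of all genes, and a link of peaks with falls was not tested. A peak at a start in 1 *Bmal1*-/- library and none at a start in WT was found for *Kcnh5*, *Kcnip1*, *Kcnip3*, *Kcnn2* and *Kcnu1*. At a start, *Kcnmb4* had one in a *Bmal1*-/- and a WT library, and *Kcnab3* and *Kcnk10* in a WT library only. Within the whole gene, *Kcnh1* had 3 peaks in each *Bmal1*-/- and 1 in each WT library. *Kcnip1* had 10 and 7 in *Bmal1*-/- and 0 and 3 in WT libraries. *Kcnb2*, *Kcnh5*, *Kcnip3*, *Kcnk16*, *Kcnn2* and *Kcnu1* had none within the gene in WT libraries.

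The *Kcnip4* window is printed because all 4 peaks overlap it, and capitals mark the 130 bases, chr5:49285666-49285795, that they share (RefSeq, GRCm38.p6).
*Kcnip4*, chr5:49285610-49285909, minus strand: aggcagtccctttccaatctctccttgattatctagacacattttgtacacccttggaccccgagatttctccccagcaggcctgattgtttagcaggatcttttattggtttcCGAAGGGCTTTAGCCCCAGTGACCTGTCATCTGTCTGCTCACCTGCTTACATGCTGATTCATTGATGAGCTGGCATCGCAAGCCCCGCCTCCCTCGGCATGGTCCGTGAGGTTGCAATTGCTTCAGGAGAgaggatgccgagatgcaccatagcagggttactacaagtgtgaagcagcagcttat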

How the data were processed

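Poly(A) RNA of 9 β-TC6 libraries had been sequenced from directional kits with paired 75-bp reads, and the authors aligned reads to mm10 with STAR 2.5.0 and assigned them to exons with featureCounts 1.5.3. Expression is the authors' deposited TPM, and how TPM was computed, and with which strand setting reads were counted, is not given in the sources used here. The deposited DESeq2 1.22.1 tables hold the authors' own fold changes and p-values, which were not used. From them only the authors' mean normalized count over 9 libraries (a signal) was taken. THRAP3 peaks are the authors' HOMER lists, called per library over the pooled input of the genotype after Bowtie2 2.2.4, and the deposited signal, score and ratio (fold over input) of a peak are theirs.

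Gene names came from the GENCODE vM21 annotation. Genes that reached 1 TPM in 3 or more of 9 libraries were fitted as log2(TPM + 1) with limma 3.58.1 in R 4.3.3 (eBayes with a mean–variance trend, no block), all 9 libraries together, and p-values were adjusted over all genes tested. A self-test on simulated data recovered most of its known changes. These were large and put only into genes of higher level, so small changes and low members were not covered. Peaks, promoters and motifs were handled in Python 3.11.15. Samples were grouped by their labels, and all value columns were mapped. TPM keeps no read total, so depth is known only relative to the first WT library.

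Members and lists were chosen with earlier results of these data known. Values in every library are given for called members whose mean reached 5 TPM in the highest genotype, members that moved in opposite directions, the 6 members the study names, and the 5 highest in WT. The other expressed members are named at least once, apart from a few subunits that are not reported here. The further values per library (such as those of *Kcnab1*), the partner genes and the named β-cell markers were chosen after their values were seen. Alternatives were other pseudocounts, filters, scalings (median-of-ratios, or each library centred on the median log2 level of each chromosome), fits, a replicate block and each library left out. The protein signature of the channels was not analysed here, nor were the eCLIP libraries.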

Additional observations from a re-analysis of the deposited data

How the results depend on the processing

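Each result was recomputed under the alternatives, and no member changed direction where it had passed. Relative to 7 risen members in *Bmal1*-/- cells, 11 rose with median-of-ratios rescaling, with libraries centred by chromosome and with 2 genotypes fitted alone, with *Kcnj11* and *Kcnk16* among those gained each time. With a mean TPM of at least 5, which leaves fewer members, 4 fell in *Bmal1*-/- cells and 2 were called lower there, 0 rose, 0 were called higher and 5 were called lower in *Clock*-/- cells, and 3 were lower, 2 of them called, in *Bmal1*-/- than in *Clock*-/- cells. Relative to 4 risen in *Clock*-/- cells, 2 rose with 0.1 added to TPM, with 2 genotypes fitted alone and with the replicate block. Without the filter on low values, which adds members, 6 rose and 21 fell in *Bmal1*-/- cells, and 3 rose and 16 fell in *Clock*-/- cells. Called as higher were 1 in *Bmal1*-/- cells with libraries centred by chromosome and 2 in *Clock*-/- cells with 0.1 or 0.5 added or libraries centred by chromosome, and called as lower in *Bmal1*-/- than in *Clock*-/- cells were 10 with 0.1 and 8 with 0.5 added. With each library left out in turn, 5 to 11 rose and 14 to 15 fell in *Bmal1*-/- cells (2 and 10 to 12 called), 2 to 4 rose and 12 to 18 fell in *Clock*-/- cells (0 to 1 and 10 to 11 called), and 12 to 14 were higher and 10 to 13 lower between the lines (9 to 11 and 5 to 7 called). The count of 11 risen came without the second *Clock*-/- library, and the only *Clock*-/- call as higher was lost without the first WT library. The THRAP3 share in *Bmal1*-/- cells was 8.51% with peaks at or above the median score. That rule shortens every peak list, so nothing about the members is read from the drop. With a library left out the share was 14.9% to 19.1% in *Bmal1*-/- cells, beside 26.5% to 31.5% of all expressed genes. In WT cells it was 2.13% to 8.51%, beside 1.34% to 12.5%, with 2.13% without the second WT library. Libraries were not paired by replicate number, since deviations of same-numbered libraries correlated at −0.208 to 0.0742 and of others at −0.163 to 0.212. With the replicate block 6 rose and 15 fell in *Bmal1*-/- cells, 2 rose and 13 fell in *Clock*-/- cells, and 13 were higher and 10 lower between the lines. TPM keeps no read counts, so for members under a few TPM the sampling error is unknown, and the added 1 hides part of their change.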

Other observations

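The 4 noncoding genes with a *Kcn* symbol were measured beside the subunits. *Kcnq1ot1*, the antisense RNA of the imprinted *Kcnq1* domain, was at 0.393, 0.494 and 0.589 TPM in *Bmal1*-/- libraries, 2.15, 2.69 and 2.83 TPM in *Clock*-/- libraries and 2.16, 2.21 and 2.07 TPM in WT libraries. All *Bmal1*-/- values were below WT while *Clock*-/- overlapped it, and it had a log2 fold change of −1.08 (SE 0.13, adjusted p = 0.000103) in *Bmal1*-/- and 0.17 (SE 0.13, adjusted p = 0.341) in *Clock*-/- cells with limma. *Kcnq1* itself was under 1 TPM in every library. *Kcnab3os* was at 0, 0.387 and 0 TPM in *Bmal1*-/- libraries, 2.02, 2.14 and 2.5 TPM in *Clock*-/- libraries and 0.841, 1.81 and 1.61 TPM in WT libraries, so its order between the lines was the reverse of that of *Kcnab3*. *Kcnmb4os2* reached 1 TPM in 2 *Clock*-/- libraries, and *Kcnd3os* in none.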
